A study of Mus musculus with 4 samples.

Results

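Collagens are the triple-helical proteins that give skin its strength, and each collagen chain is encoded by a gene of its own. The 44 collagen genes described here are all the genes whose symbol is Col, a type number, the letter a and a chain number, out of 24346 symbols in each library. They were sorted by type into 11 fibrillar, 10 basement membrane and 23 other collagens. RNA sequencing was performed on whole dorsal skin of male C57BL/6 mice, 8 weeks old at the start of feeding. In the Cont-IMQ group, mice ate a diet rich in fat, cholesterol and sucrose with added bile salt, named the NASH diet after nonalcoholic steatohepatitis, for 3 weeks. In the 7KC-IMQ group, the same diet contained 7-ketocholesterol (7KC), an oxidized form of cholesterol. Imiquimod (IMQ) cream, which is used to induce psoriasis-like inflammation in mice, was then applied to both groups, and skin was taken after 1 day. Each group had 2 libraries, and both groups shared the NASH diet and IMQ, so the comparison was of dietary 7KC on that background. Skin without IMQ was not analysed here.

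Fibroblasts of the dermis make most of the fibrillar collagen, in which long rod-shaped molecules of type I and type III assemble into banded fibrils, with type V and type XI molecules at the fibril core. Basement membranes, the thin sheets under the epidermis and around vessels, nerves and fat cells, contain a network of type IV collagen, and types VII and XVII fasten basal keratinocytes to the dermis through anchoring fibrils and hemidesmosomes. Type VI collagen forms beaded microfilaments between cells and fibrils, while fibril-associated and transmembrane collagens bind fibrils to each other or to cell surfaces. Since keratinocytes, endothelial cells and other cells also make collagens, whole skin does not separate the dermal share.

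Expression was measured as FPKM, the number of fragments scaled to transcript length and to all mapped fragments. This puts genes and libraries on a common scale but does not fix the sum of a library. Summed FPKM was 651015 in Cont-IMQ replicate 1 and 630272 in Cont-IMQ replicate 2. It was 654666 in 7KC-IMQ replicate 1 and 702218 in 7KC-IMQ replicate 2. Some results are therefore also given after rescaling to the same summed FPKM. From the steps in which the FPKM of low genes moved, the estimated depth was 15220000 reads for Cont-IMQ replicate 1, 14910000 for Cont-IMQ replicate 2, 16180000 for 7KC-IMQ replicate 1 and 14860000 for 7KC-IMQ replicate 2. With these estimates, 75.6% to 81.0% of the low genes lay within 0.1 read of a whole number. The median over the whole range of depths tried was 11.8% to 12.3%. The groups were compared by limma on log2(FPKM + 1), a scale that understates differences of low genes, over the 15896 genes whose FPKM averaged 0.1 or more. P-values were adjusted over all of these genes by the Benjamini-Hochberg method, with a threshold of 0.05. An exact permutation test of 2 against 2 libraries cannot give a two-sided p below 0.333, so single values outside this fit carry no p.

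The libraries expressed the genes that define skin, with *Krt14*, a keratin of basal keratinocytes, at 4409 FPKM in Cont-IMQ replicate 1, 4132 in Cont-IMQ replicate 2, 4807 in 7KC-IMQ replicate 1 and 5700 in 7KC-IMQ replicate 2. This order of libraries is used for all lists of 4 values. The most abundant of the 12 fibroblast markers was *Vim*, the intermediate filament gene vimentin, at 369, 357, 340 and 363 FPKM. Both Cont-IMQ libraries stood apart from each other in genes of the growing hair follicle. The summed FPKM of 12 such markers was 120 in Cont-IMQ replicate 1 and 1560 in replicate 2, and 456 and 402 in the 7KC-IMQ libraries. *Krt71*, an inner root sheath keratin and the most abundant of them, had 34.5, 503, 135 and 112 FPKM. None of the 12 markers separated the groups, 4 having a log2 difference above 0 and 8 below, and none was at 0 in any library. The Cont-IMQ libraries thus bracketed the 7KC-IMQ libraries in this respect, and each collagen gene whose direction depended on a single Cont-IMQ library is named with its value without that library.

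Of the 44 collagen genes, 36 passed the filter on low values and were tested, and 24 had a mean FPKM of at least 1. None of the 36 passed the adjusted threshold in limma, where 1 of the 15896 genes tested (0.00629%) did. That gene was *Mir24-2*, a microRNA precursor named here after its values were seen, which was listed at 0 in both 7KC-IMQ libraries, where a 0 can be a failed estimate, and had an adjusted p of 3.8e-05. At an unadjusted p under 0.05, 5 collagen genes (13.9% of 36) were higher in 7KC-IMQ, beside 7.5% of all genes tested. A further 6 (16.7%) were lower, beside 5.47% of all genes tested. Whether these shares differ was not tested. All 6 were basement membrane collagens, and the 5 higher ones were *Col6a1*, *Col6a2*, *Col6a3*, *Col18a1* and *Col23a1*. Without 7KC-IMQ replicate 1 or replicate 2, the 11 genes at an unadjusted p under 0.05 became 5 and 3. Leaving out Cont-IMQ replicate 1 gave 12, with *Col4a6*, *Col18a1* and *Col23a1* lost and *Col1a1*, *Col3a1*, *Col11a1* and *Col14a1* gained. Leaving out Cont-IMQ replicate 2 gave 14, with *Col6a1* lost and *Col4a1*, *Col4a2*, *Col5a3* and *Col11a1* gained. When libraries were rescaled to the same summed FPKM, the 11 genes became 8, without *Col6a1*, *Col18a1* and *Col23a1*. With quantile normalization or with no variance trend they became 9, without *Col6a1* and *Col18a1*. For these alternative fits the share of all genes at this p is not given, so a move of the collagens apart from all genes was not tested.

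Separation of the groups, with every 7KC-IMQ value on the same side of every Cont-IMQ value, was near the background. It was seen in 8 collagen genes (22.2%) towards higher values, where all genes tested gave 23.9%, and in 10 (27.8%) towards lower values, where all genes gave 22.9%. The same shares of all genes, 23.9% higher and 22.9% lower, are the background of each count without overlap given for a list below. After rescaling to the same summed FPKM, 7 collagens (19.4%) were higher and 10 (27.8%) lower, beside 15% and 32.1% of all genes. Leaving out Cont-IMQ replicate 1 gave 13 higher (36.1%) and 18 lower (50%), where all genes gave 38.6% and 39.1%. Without Cont-IMQ replicate 2 there were 16 higher (45.7%) and 14 lower (40%), where all genes gave 38.9% and 38.6%. By class, the median log2 difference, 7KC-IMQ minus Cont-IMQ, was 0.08 over 10 fibrillar, -0.38 over 10 basement membrane and 0.01 over 16 other collagens tested, against -0.01 over all genes tested. The fibrillar median became -0.11 without Cont-IMQ replicate 2. The median of the other collagens depended on the filter, at 0.2267 over those with a mean FPKM of at least 1. It turned to -0.04 when libraries were rescaled to the same summed FPKM and to -0.0012 with a pseudocount of 0.1, and was -0.0028 without 7KC-IMQ replicate 2 and 0.08 to 0.11 without any other library, whereas that of the basement membrane collagens was negative under each scaling.

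**Figure D1:**
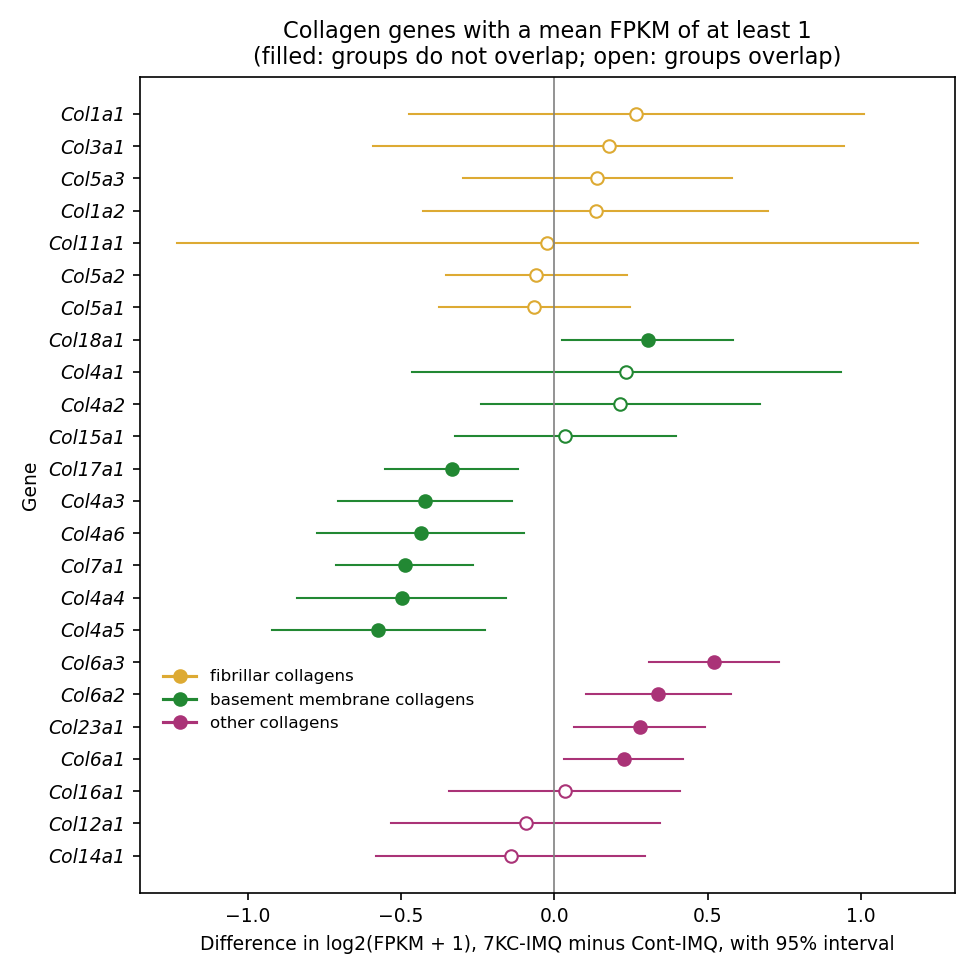
Difference in log2(FPKM + 1), 7KC-IMQ minus Cont-IMQ, for the 24 collagen genes that averaged at least 1 FPKM, with points for the limma estimate and lines for its 95% interval (n = 2 libraries per group). Filled points mark genes whose groups do not overlap. The fibrillar collagens all overlap, 6 basement membrane collagens lie to the left of 0 without overlap, and *Col6a1*, *Col6a2*, *Col6a3*, *Col18a1* and *Col23a1* lie to the right without overlap.

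Fibrillar collagens were the most abundant collagen transcripts, and the groups overlapped in 9 of the 10 tested. *Col1a1* and *Col1a2* encode the chains of type I collagen, the main protein of the dermis. *Col1a1* (chr11:94936224-94953042, plus strand, GRCm38) had 797, 471, 819 and 665 FPKM. Means were 634 ± 231 FPKM (SD, n = 2) in Cont-IMQ and 742 ± 108 FPKM in 7KC-IMQ. Cont-IMQ replicate 2 was the lowest library and replicate 1 lay between the 7KC-IMQ libraries, so the groups overlapped. The log2 difference was 0.27, with an interval from -0.47 to 1.01 and an adjusted p of 0.721 in limma. *Col1a2* (chr6:4504814-4541544, plus strand) had 729, 507, 739 and 604 FPKM and followed the same order of libraries. Its log2 difference was 0.14 with an adjusted p of 0.819.

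*Col3a1*, the single chain gene of type III collagen, which forms the finer fibrils mixed with type I, had 560, 311, 490 and 455 FPKM. Here too Cont-IMQ replicate 2 was the lowest, while replicate 1 was the highest of all. For *Col3a1* the log2 difference was 0.18, and the adjusted p was 0.827. Without Cont-IMQ replicate 2, the differences of *Col1a1*, *Col1a2* and *Col3a1* became -0.11, -0.13 and -0.25, and that of *Col1a2* was -0.01 without 7KC-IMQ replicate 1. Without Cont-IMQ replicate 1 they were 0.65, 0.40 and 0.60, each higher without overlap. The direction of these 3 genes therefore rested on the library with the highest level of hair follicle markers, and the part of those markers in it was not tested. Together the 3 genes made up 79.3%, 69.6%, 78.6% and 76.4% of the summed collagen FPKM.

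The ratio of the type I chains was close to 1 throughout, with *Col1a1* over *Col1a2* at 1.09, 0.928, 1.11 and 1.10. *Col3a1* over *Col1a1* was 0.702, 0.661, 0.598 and 0.684. The groups overlapped in the second ratio, while in the first both 7KC-IMQ libraries were above both Cont-IMQ libraries by a small margin. All collagens together summed to 2632, 1851, 2603 and 2255 FPKM, which was 0.294% to 0.404% of the summed FPKM of a library.

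**Figure D2:**
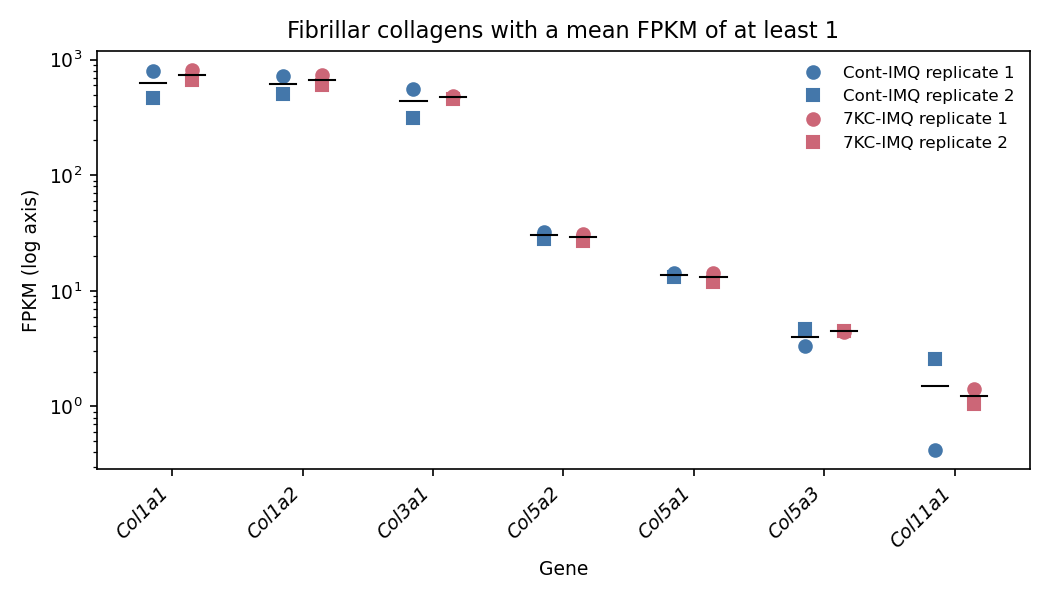
FPKM, on a log axis, of the 7 fibrillar collagen genes with a mean of at least 1, with circles for replicate 1, squares for replicate 2 and short lines for group means. Cont-IMQ replicate 2 is the lowest library for *Col1a1*, *Col1a2* and *Col3a1* and the highest for *Col11a1*, and the groups overlap for all 7 genes.

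Type V collagen, which sits inside type I fibrils and limits their diameter, was expressed at far lower levels. *Col5a2* had 32.5, 28.4, 31.2 and 27.2 FPKM and *Col5a1* had 14.4, 13.1, 14.3 and 12.0 FPKM, so in both genes the replicate 1 libraries were higher than the replicate 2 libraries. The log2 differences were -0.06 and -0.07, and they became 0.04 and 0.05 without 7KC-IMQ replicate 2. That of *Col5a2* was also 0.04 without Cont-IMQ replicate 1. The ratio of *Col5a2* to *Col5a1* stayed between 2.17 and 2.28 in the 4 libraries. *Col5a3*, the gene of a less common type V chain, had 3.31, 4.72, 4.43 and 4.52 FPKM, with Cont-IMQ replicate 1 below the rest. Its log2 difference was 0.14, and -0.06 without that library and 0.34 without Cont-IMQ replicate 2.

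*Col11a1*, a minor fibrillar chain best known from cartilage, had 0.421, 2.59, 1.41 and 1.05 FPKM. Cont-IMQ replicate 2 was the highest and replicate 1 the lowest, the order of the hair follicle markers. The log2 difference was -0.02 with an interval from -1.23 to 1.19, and it was -0.69 without Cont-IMQ replicate 1, 0.65 without Cont-IMQ replicate 2 and 0.09 without 7KC-IMQ replicate 2. It was also positive, at 0.155, with a pseudocount of 0.1, and at 0.03 after quantile normalization. Of 7 listed cartilage markers 5 were measured, with summed FPKM of 0.397, 0.873, 0.574 and 0.553. The most abundant was *Acan*, the aggrecan gene, at 0.127, 0.484, 0.440 and 0.193 FPKM, while *Matn1* was listed at 0 in 2 libraries and *Matn3* in 3. *Col2a1*, the main collagen of cartilage, had at most 0.0969 FPKM and was not tested.

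The other fibrillar genes lay below a mean FPKM of 1. *Col27a1* had 0.801, 0.906, 1.18 and 0.954 FPKM, the only fibrillar gene tested whose groups did not overlap, with a log2 difference of 0.16 and an adjusted p of 0.613. Its groups overlapped when libraries were rescaled to the same summed FPKM, and the difference was 0.08 without 7KC-IMQ replicate 1 and 0.23 without 7KC-IMQ replicate 2. *Col11a2* and *Col24a1* lay between 0.0560 and 0.460 FPKM with overlapping groups. Their log2 differences of 0.03 and 0.01 became -0.11 and -0.06 without Cont-IMQ replicate 1.

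The sequence before the start of *Col3a1* is shown as an example of an abundant fibrillar gene, and those of other genes are given where each is described, with the reason for showing it. Sequences are from RefSeq on GRCm38.p6 and run from 5′ to 3′ on the strand of the gene, over the 250 bases before its start, in which GENCODE M21 places no gene. Capitals mark matches, on either strand, to the letters GGGCGG of the GC box, the letters CCAAT of the box of that name, the letters TATAAA of the TATA box, or the letters TGACTCA of the AP-1 site. Among 32851 promoters of this length, 32.7% held a GC box, 33.8% a CCAAT box, 12.4% a TATA box and 4.5% an AP-1 site. Of the 44 collagen genes 35 had 38 promoters in that table, of which 22, 13, 5 and 1 held these motifs in the same order. A match describes the letters and is not evidence of a bound site. The *Col3a1* stretch (chr1:45311288-45311537, plus strand) held a single match, a TATA box that begins 117 bases before the start.
Col3a1: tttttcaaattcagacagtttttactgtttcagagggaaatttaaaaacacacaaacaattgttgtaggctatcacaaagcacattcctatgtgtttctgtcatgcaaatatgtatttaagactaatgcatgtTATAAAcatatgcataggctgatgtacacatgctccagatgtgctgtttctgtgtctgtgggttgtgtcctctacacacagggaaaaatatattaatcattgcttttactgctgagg

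Basement membrane collagens were all tested, and all 10 had a mean FPKM of at least 1. Their type IV members fell into 2 sets. *Col4a1* and *Col4a2*, whose products form the network found in nearly all basement membranes, had overlapping groups. *Col4a3*, *Col4a4*, *Col4a5* and *Col4a6*, whose products form the networks of particular membranes, including those of the kidney and, for *Col4a5* and *Col4a6*, of the epidermis, were each lower in 7KC-IMQ without overlap.

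*Col4a1* had 38.3, 66.4, 61.1 and 58.1 FPKM. Cont-IMQ replicate 1 was the lowest and replicate 2 the highest library. Its log2 difference stood at 0.24 with an adjusted p of 0.741. *Col4a2*, which lies head to head with it and overlaps it by 22 bases on chromosome 8, had 22.1, 31.0, 31.5 and 29.5 FPKM, again with Cont-IMQ replicate 1 below the rest. Its log2 difference was 0.22 with an adjusted p of 0.634. Without Cont-IMQ replicate 1, the differences of the pair became -0.15 and -0.02, and without Cont-IMQ replicate 2 they were 0.62 and 0.45. The ratio of *Col4a1* to *Col4a2* was 1.74, 2.14, 1.94 and 1.97, with the 7KC-IMQ libraries between the Cont-IMQ libraries.

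*Col4a5* (chrX:141475385-141689234, plus strand) had 2.44, 3.01, 1.60 and 1.39 FPKM. Both 7KC-IMQ libraries were below both Cont-IMQ libraries, with a 7KC-IMQ mean at 0.549 times the Cont-IMQ mean. The log2 difference was -0.57 with an interval from -0.92 to -0.23, and the adjusted p was 0.356 in limma. Its neighbor *Col4a6*, 1308 bases away on the opposite strand, had 1.85, 1.64, 1.18 and 0.886 FPKM. The groups did not overlap, and the log2 difference was -0.44. In mice and other mammals, both genes are transcribed away from a shared stretch, and their products join in networks under epithelia. *Col4a5* over *Col4a6* was 1.32, 1.83, 1.36 and 1.57, so the ratio did not separate the groups.

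*Col4a4* and *Col4a3* form a second head-to-head pair, with their annotated starts 71 bases apart on chromosome 1. *Col4a4* had 1.93, 2.45, 1.30 and 1.21 FPKM, and *Col4a3* had 1.51, 1.52, 0.806 and 0.952 FPKM. In both genes the 7KC-IMQ libraries were the lower ones. The log2 differences were -0.50 and -0.42, each with an adjusted p of 0.356. Of the 75-base windows of *Col4a3* transcripts, 4.15% also occurred in the overlapping gene *C430014B12Rik*, so a small part of its reads could belong to that gene. At these levels *Col4a3* rested on about 192, 190, 109 and 118 reads, as estimated from FPKM, depth and transcript length.

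The 4 genes summed to 7.73, 8.63, 4.89 and 4.44 FPKM, a 7KC-IMQ mean of 0.570 times that of Cont-IMQ, while *Col4a1* and *Col4a2* summed to 60.4, 97.4, 92.7 and 87.7 FPKM. *Col4a1* over *Col4a5* was accordingly 15.7, 22.0, 38.1 and 41.7. That the groups did not overlap in this ratio follows from the values of both genes and is no separate result. None of the 4 genes turned in direction when any single library was left out or under any scaling. In whole skin, fewer cells of a type and less RNA per cell cannot be told apart.

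The stretches between the genes of these pairs are shown because both members of each pair were lower in the same libraries. The whole sequence between the *Col4a4* and *Col4a3* starts (chr1:82586850-82586920), written on the strand of *Col4a4*, held none of the motifs named for *Col3a1*. The 250 bases before the start of *Col4a6* (chrX:141474077-141474326, minus strand), part of the sequence between *Col4a6* and *Col4a5*, held a single GC box on the opposite strand that begins 21 bases before the start.
between Col4a4 and Col4a3: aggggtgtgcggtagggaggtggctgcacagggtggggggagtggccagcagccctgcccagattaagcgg
Col4a6: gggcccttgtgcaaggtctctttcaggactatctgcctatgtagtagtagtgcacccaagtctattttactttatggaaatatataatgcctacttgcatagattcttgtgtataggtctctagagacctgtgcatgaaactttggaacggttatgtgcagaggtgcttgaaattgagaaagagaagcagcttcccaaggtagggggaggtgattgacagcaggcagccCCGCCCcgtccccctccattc

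**Figure D3:**
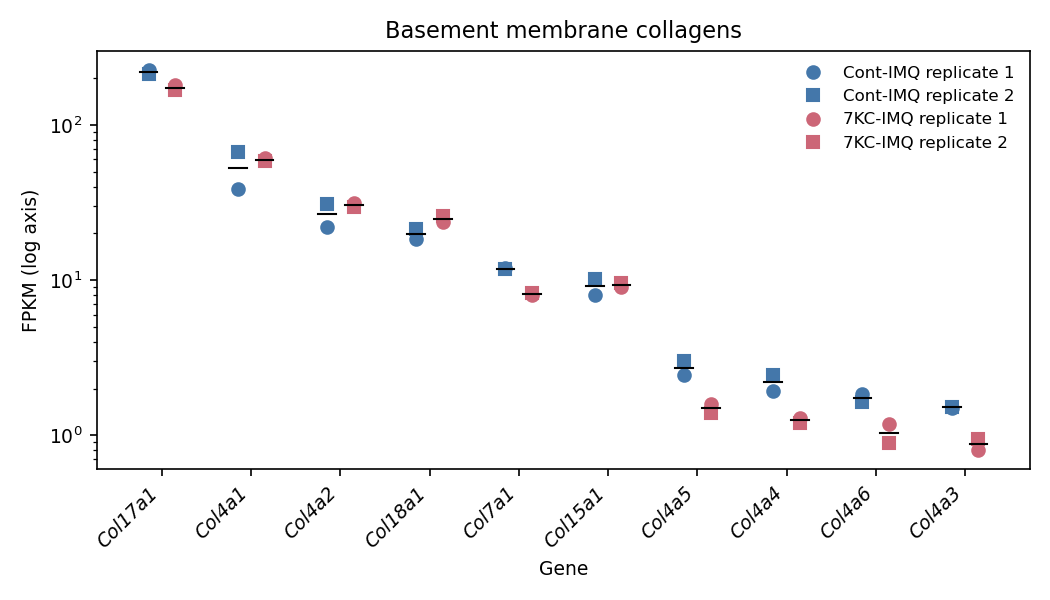
FPKM, on a log axis, of the 10 basement membrane collagen genes, with circles for replicate 1, squares for replicate 2 and short lines for group means. Both 7KC-IMQ libraries lie below both Cont-IMQ libraries for *Col17a1*, *Col7a1*, *Col4a3*, *Col4a4*, *Col4a5* and *Col4a6*, above them for *Col18a1*, and overlap them for *Col4a1*, *Col4a2* and *Col15a1*.

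*Col17a1* encodes a transmembrane collagen of the hemidesmosome, which anchors basal keratinocytes, and was the most abundant collagen outside the fibrillar class. Its FPKM was 226, 212, 180 and 168. Means were 219 ± 9.76 FPKM (SD, n = 2) in Cont-IMQ and 174 ± 8.50 FPKM in 7KC-IMQ, and the groups did not overlap. This gave a log2 difference of -0.34 with an interval from -0.55 to -0.12 and an adjusted p of 0.356. *Col7a1*, which encodes the anchoring fibril collagen, had 11.9, 11.8, 8.05 and 8.28 FPKM. The libraries of each group lay close together and apart from the other group, at a ratio of 0.688 between the means. The log2 difference was -0.49 with an interval from -0.71 to -0.27, and the adjusted p was 0.352, so neither gene passed the threshold. The sequence before the start of *Col7a1* (chr9:108953336-108953585, plus strand), shown because this gene had the smallest unadjusted p among the lower collagens, held a GC box that begins 61 bases before the start and a CCAAT box on the opposite strand at 249 bases.
Col7a1: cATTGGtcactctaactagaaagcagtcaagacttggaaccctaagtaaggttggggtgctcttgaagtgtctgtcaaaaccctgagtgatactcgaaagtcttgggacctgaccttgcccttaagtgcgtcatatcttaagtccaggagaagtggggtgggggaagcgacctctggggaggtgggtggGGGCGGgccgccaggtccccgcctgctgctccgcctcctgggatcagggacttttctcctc

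*Col7a1* and *Col17a1* are products of keratinocytes, in the case of *Col7a1* also of fibroblasts, and markers of basal keratinocytes were mixed. Of 7 such markers, 2 were higher and 2 lower in 7KC-IMQ without overlap, near the shares of all genes, and their summed FPKM was 7911, 7079, 7932 and 8745. *Krt14*, the most abundant, was higher without overlap at a log2 difference of 0.29 with an adjusted p of 0.506. *Krt15*, a keratin of basal cells and of the hair follicle bulge, was the marker with the largest lower difference, at 216, 172, 123 and 96.9 FPKM. Its log2 difference was -0.81 with an adjusted p of 0.352. *Dst*, the other lower marker, had 41.9, 37.1, 29.7 and 28.2 FPKM and a log2 difference of -0.43. At an unadjusted p under 0.05 in limma, these 2 markers were lower and none was higher, beside 5.47% and 7.5% of all genes. None of the 7 was at 0. For suprabasal keratinocytes, 6 of 7 listed markers were measured, with summed FPKM of 16730, 9575, 11109 and 12310. The most abundant was *Krt10*, at 8444, 4597, 5283 and 5553 FPKM, and none was at 0. Of these 2 were lower without overlap, with *Ivl*, the involucrin gene, at 302, 353, 215 and 233 FPKM and a log2 difference of -0.54. The part of these cells in the lower *Col7a1*, *Col17a1* and *Col4a3* to *Col4a6* values was not tested.

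*Col18a1* and *Col15a1* encode collagens with long sugar chains that line basement membranes of vessels and epithelia, and the C-terminal part of the *Col18a1* product is known as endostatin. *Col18a1* had 18.4, 21.4, 23.7 and 25.7 FPKM, and it was the only basement membrane collagen higher in 7KC-IMQ without overlap. Its log2 difference was 0.31 with an interval from 0.03 to 0.58 and an adjusted p of 0.369, and without Cont-IMQ replicate 1 it was 0.20 with an unadjusted p of 0.116. *Col15a1* had 8.02, 10.2, 9.04 and 9.62 FPKM, so the 7KC-IMQ libraries lay between the Cont-IMQ libraries. Its log2 difference of 0.04 became -0.12 without Cont-IMQ replicate 1, -0.004 without 7KC-IMQ replicate 2, and -0.04 when libraries were rescaled to the same summed FPKM.

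Markers of endothelial cells, which rest on a basement membrane rich in *Col4a1* and *Col4a2* products, were lower in 7KC-IMQ without overlap in 7 of 8 genes, beside 22.9% of all genes tested. Their summed FPKM was 67.0, 73.0, 54.9 and 51.7, and none was at 0. The most abundant, *Pecam1*, had 21.9, 26.0, 19.1 and 19.1 FPKM. *Tek*, the angiopoietin receptor, had the largest difference, with 6.44, 6.98, 4.63 and 4.11 FPKM, a log2 difference of -0.52 and an adjusted p of 0.352. The log2 differences of *Col4a1*, *Col4a2* and *Col15a1* were above 0 with all libraries and became -0.15, -0.02 and -0.12 without Cont-IMQ replicate 1. The part of endothelial cells in these genes and in *Col18a1* was not tested.

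Laminins, nidogens and heparan sulfate proteoglycans, the partners of type IV collagen in basement membranes, are given as a list. Of 15 genes, all tested, 12 had a log2 difference below 0, and 8 were lower and 1 higher without overlap, beside 22.9% and 23.9% of all genes. None passed the adjusted threshold in limma. At an unadjusted p under 0.05, 1 was lower and none was higher, beside 5.47% and 7.5% of all genes. The median log2 difference of the list was -0.18, and its summed FPKM was 185, 219, 181 and 162. *Nid1*, the most abundant, encodes nidogen and had 30.2, 39.1, 29.0 and 23.1 FPKM, with both 7KC-IMQ libraries below both Cont-IMQ libraries. *Lamb3*, a chain of the laminin under the epidermis, had 23.2, 25.2, 17.0 and 16.3 FPKM. Its groups did not overlap, and its log2 difference of -0.51 had an adjusted p of 0.352.

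Type VI collagen had all 3 of its main chains higher in 7KC-IMQ without overlap. They are encoded by *Col6a1*, *Col6a2* and *Col6a3*, and in skin they come mainly from fibroblasts. *Col6a3* (chr1:90765923-90843971, minus strand) had 11.7, 11.5, 16.7 and 17.5 FPKM. Means were 11.6 ± 0.163 FPKM (SD, n = 2) in Cont-IMQ and 17.1 ± 0.541 FPKM in 7KC-IMQ, a ratio of 1.47. The groups were far apart relative to the spread within each. In limma, the log2 difference was 0.52 with an interval from 0.31 to 0.73, an unadjusted p of 0.0018 and an adjusted p of 0.352.

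*Col6a2* had 45.9, 40.6, 56.2 and 53.6 FPKM and *Col6a1* had 51.7, 48.3, 59.2 and 58.2 FPKM, and neither gene had overlapping groups. The log2 differences were 0.34 and 0.23, with adjusted p of 0.356 and 0.365. These genes lie on chromosome 10 on the same strand, 85161 bases apart, and *Col6a3* lies on chromosome 1. *Col6a1* over *Col6a2* was 1.13, 1.19, 1.05 and 1.09, and *Col6a1* over *Col6a3* was 4.40, 4.20, 3.53 and 3.32. Both ratios were lower in the 7KC-IMQ libraries without overlap, and the difference between the genes was not tested. The sum of the 3 genes was 109, 100, 132 and 129 FPKM, a ratio of 1.25 between the means. None of the 3 turned in direction under any scaling or without any library, but the log2 difference of *Col6a1* was 0.15, with an adjusted p of 0.53, when libraries were rescaled to the same summed FPKM. The sequence before the start of *Col6a3* (chr1:90843972-90844221, minus strand), shown because this gene had the smallest unadjusted p among the collagens, held none of the motifs.
Col6a3: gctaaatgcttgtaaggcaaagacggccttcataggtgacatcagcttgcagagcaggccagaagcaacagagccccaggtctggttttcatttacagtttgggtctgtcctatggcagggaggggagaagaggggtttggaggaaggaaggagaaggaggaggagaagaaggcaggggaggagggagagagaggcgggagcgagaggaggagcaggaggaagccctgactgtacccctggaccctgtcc

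*Col6a4*, *Col6a5* and *Col6a6* encode chains that can take the place of the *Col6a3* product and were low. *Col6a6* had 0.235, 0.294, 0.193 and 0.200 FPKM, lower without overlap at an adjusted p of 0.769, and *Col6a4* and *Col6a5* were not tested, with at most 0.0931 FPKM. Of the 75-base windows of *Col6a5* and *Col6a6*, 2.89% and 2.97% were shared, mainly between both genes, so some of their reads could be exchanged.

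**Figure D4:**
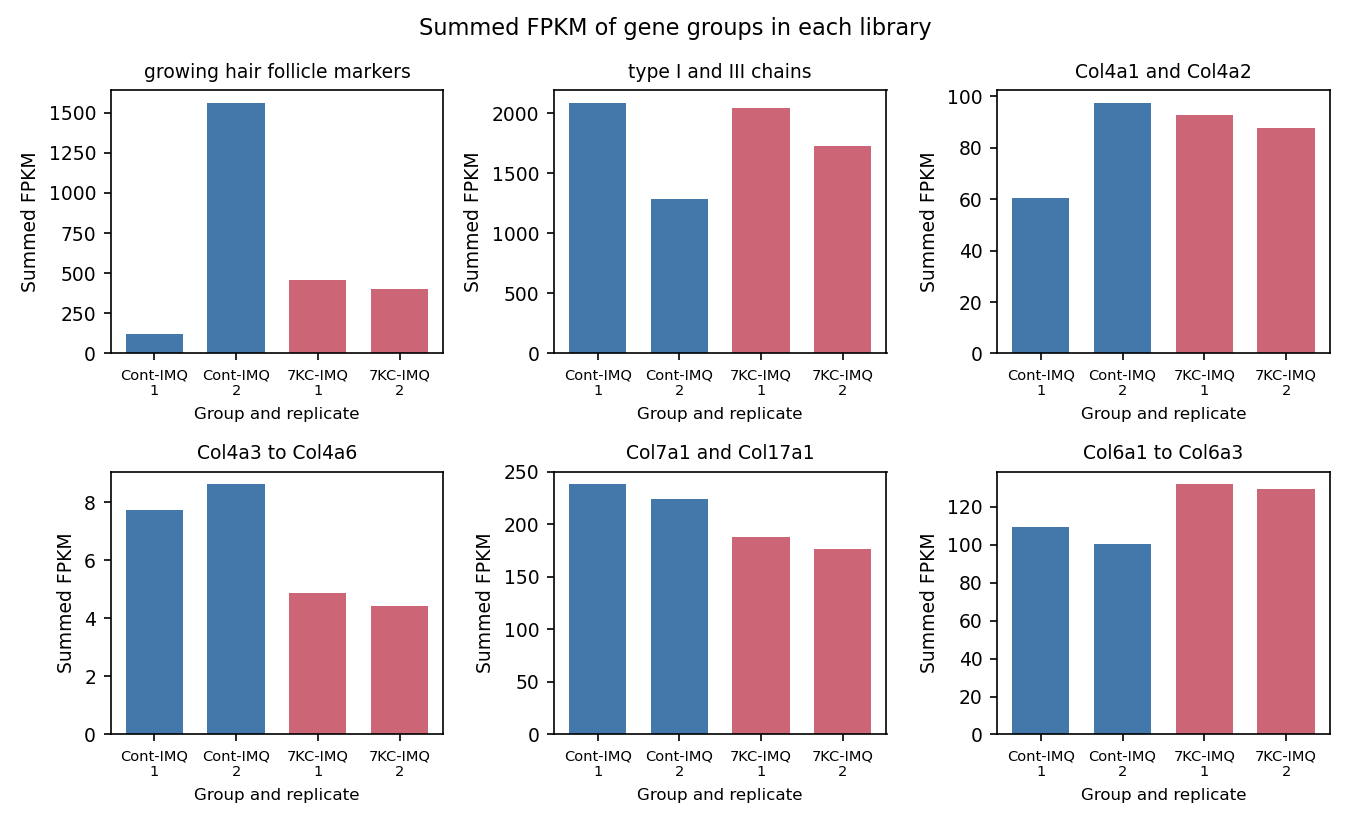
Summed FPKM of 6 gene groups in each library, with bars from 0 in blue for Cont-IMQ and red for 7KC-IMQ. Growing hair follicle markers are highest and type I and III chains lowest in Cont-IMQ replicate 2, *Col4a3* to *Col4a6* and *Col7a1* with *Col17a1* are lower in both 7KC-IMQ libraries, and *Col6a1* to *Col6a3* are higher in both.

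Fibroblast markers showed no common direction beside the fibrillar and type VI genes. Of 12 markers, 3 were higher and 3 lower in 7KC-IMQ without overlap, close to the 23.9% and 22.9% of all genes, the median log2 difference was -0.01, and the summed FPKM was 703, 708, 701 and 723. None was at 0. *Thy1*, a surface protein of fibroblasts, had 62.6, 57.1, 78.0 and 83.5 FPKM, so both 7KC-IMQ libraries were higher, with a log2 difference of 0.43 and an adjusted p of 0.352. *Dpp4*, a peptidase on the surface of dermal and fascial fibroblasts, had 9.75, 11.3, 7.17 and 7.05 FPKM. It was lower without overlap, with a log2 difference of -0.51 and an adjusted p of 0.353. The part of fibroblast number or kind in the type VI values was not tested.

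Among the remaining collagens, *Col23a1*, which encodes a transmembrane collagen of epithelial cells, had 12.5, 13.2, 15.9 and 15.7 FPKM. Both 7KC-IMQ libraries were higher, and the log2 difference was 0.28 with an interval from 0.06 to 0.49 and an adjusted p of 0.356. *Col16a1*, *Col14a1* and *Col12a1* belong to the fibril-associated collagens, which decorate fibrils and do not form them. *Col16a1* had 27.0, 20.8, 25.2 and 23.4 FPKM with a log2 difference of 0.03. Its direction was not fixed, with -0.15 without Cont-IMQ replicate 2, -0.02 without 7KC-IMQ replicate 1, -0.04 after rescaling to the same summed FPKM and -0.0042 after quantile normalization.

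*Col14a1* had 5.44, 7.61, 5.68 and 5.82 FPKM and *Col12a1* had 2.22, 3.25, 2.47 and 2.46 FPKM. In both genes Cont-IMQ replicate 2 was above the other libraries and replicate 1 below them. The log2 differences of -0.14 and -0.09 became 0.07 and 0.11 without Cont-IMQ replicate 2, and -0.35 and -0.29 without Cont-IMQ replicate 1. In these genes, as in *Col4a1*, *Col5a3* and *Col11a1*, the spread within Cont-IMQ was larger than that within 7KC-IMQ.

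The 12 tested collagens below a mean FPKM of 1 comprised the 3 fibrillar genes already given and 9 other collagens. Of these 9, 2 were higher and 4 lower in 7KC-IMQ without overlap, beside 23.9% and 22.9% of all genes, and none had an unadjusted p under 0.05. *Col8a2*, a short-chain collagen known from the cornea and from vessels, had 1.08, 1.08, 0.792 and 0.780 FPKM with a log2 difference of -0.22. *Col28a1*, a collagen best known from peripheral nerve, had 0.885, 1.06, 0.602 and 0.702 FPKM with a log2 difference of -0.25. In both genes the 7KC-IMQ libraries were lower, at adjusted p of 0.444 and 0.436. *Col20a1*, a fibril-associated collagen with 0.358, 0.591, 0.304 and 0.643 FPKM, had a log2 difference of -0.01 that became 0.11 without Cont-IMQ replicate 2. Of 6 Schwann cell markers, all with a log2 difference below 0, 4 did not overlap, and their summed FPKM was 118, 119, 114 and 104. *Pmp22*, a myelin gene and the most abundant, had 63.8, 64.8, 63.7 and 58.5 FPKM, and *Sox10* had the largest lower log2 difference, -0.28. None was at 0, and the part of Schwann cells in *Col28a1* was not tested.

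The low members were close to the limit of these depths. *Col26a1* was listed at 0 in Cont-IMQ replicate 1 and had 0.0524, 0.315 and 0.0789 FPKM in the other libraries, which corresponds to about 2, 13 and 3 reads. The 8 collagens not tested were *Col2a1*, *Col6a4*, *Col6a5*, *Col9a1*, *Col9a2*, *Col10a1*, *Col19a1* and *Col25a1*. Of the 44 genes 5 were listed at 0 in at least 1 library, among them *Col9a1* in both 7KC-IMQ libraries and *Col10a1* in both Cont-IMQ libraries. The 8 genes rested on at most about 14 reads in any library and are not compared singly. With no filter on low values, 11 of the 44 collagens were higher (25%) and 13 lower (29.5%) without overlap, beside 22% and 21.5% of all genes. In that limma fit 14 collagens had an unadjusted p under 0.05. The share of all genes at this p is not given for it, so no gain of collagens can be read from this count.

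Genes that modify and fold collagen chains in the endoplasmic reticulum formed a list of 19, all tested. In 7KC-IMQ, 7 were higher and 2 lower without overlap, beside 23.9% and 22.9% of all genes, and 3 higher and 1 lower had an unadjusted p under 0.05, beside 7.5% and 5.47%. The list was not tested against all genes. None passed the adjusted threshold in limma. The median log2 difference was 0.12. *Sparc*, a collagen-binding glycoprotein and the most abundant, had 667, 525, 828 and 575 FPKM with overlapping groups. *P4hb* encodes protein disulfide isomerase, the beta subunit of the prolyl hydroxylase that stabilizes the triple helix. It had 329, 276, 365 and 386 FPKM, so both 7KC-IMQ libraries were higher, with a log2 difference of 0.32 and an adjusted p of 0.374. *P3h4*, part of a lysyl hydroxylation complex, had 17.9, 18.7, 15.2 and 15.8 FPKM, lower without overlap at a log2 difference of -0.22.

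Among the procollagen processing and crosslinking genes, 12 were tested. The log2 difference was below 0 in 10 of them, 3 were lower without overlap, near the 22.9% of all genes, and the median log2 difference was -0.09. *Lox*, the lysyl oxidase that starts the crosslinks between collagen molecules, had 25.8, 26.1, 19.3 and 15.5 FPKM. The groups did not overlap, and the log2 difference was -0.56 with an adjusted p of 0.354. *Loxl4*, a related oxidase, had 6.78, 6.56, 10.2 and 7.68 FPKM and was higher without overlap, with a log2 difference of 0.36. *Pcolce*, an enhancer of procollagen cleavage and the most abundant, had 106, 90.4, 101 and 97.1 FPKM with overlapping groups.

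Small leucine-rich proteoglycans bind the surface of collagen fibrils and govern their spacing. Of 11 such genes, 10 were tested, with 3 higher and 3 lower without overlap, beside 23.9% and 22.9% of all genes, and a median log2 difference of 0.13. *Dcn*, the decorin gene, was the most abundant, at 1157, 1056, 970 and 911 FPKM, with both 7KC-IMQ libraries lower. Its log2 difference was -0.23 with an adjusted p of 0.441. *Ogn*, the osteoglycin gene, had 31.8, 39.8, 27.0 and 19.4 FPKM, lower without overlap at a log2 difference of -0.61. *Prelp*, which links collagen to basement membranes, had 43.7, 47.5, 67.8 and 55.8 FPKM, higher without overlap at a log2 difference of 0.43. The adjusted p of these genes was 0.365 and 0.356. Of the 9 collagen receptors tested, only *Ddr1*, a receptor tyrosine kinase of epithelial cells, was lower without overlap, at 59.5, 55.1, 52.8 and 51.9 FPKM. *Itgb1*, the common integrin beta chain and the most abundant, had 76.3, 82.2, 80.5 and 82.3 FPKM, and *Gp6*, the collagen receptor of platelets, was listed at 0 in all libraries.

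Other cells of skin also make collagens, and their markers are given as values. Smooth muscle and pericyte markers summed to 417, 496, 349 and 384 FPKM, with 1 of 7 lower without overlap, namely *Des*, the desmin gene also expressed in skeletal muscle and the most abundant, at 356, 410, 272 and 318 FPKM. Adipocytes make type VI and type IV collagen, and 2 of their 8 markers were higher without overlap. Their summed FPKM was 1688, 2560, 2482 and 1938, led by *Fabp4* at 831, 1200, 1158 and 762 FPKM. *Lep*, the leptin gene, had the largest difference, at 1.64, 1.16, 9.75 and 3.70 FPKM, with a log2 difference of 1.58 and an adjusted p of 0.356. Skeletal muscle of the layer under the skin was present in all libraries, with 10 markers summing to 8810, 8437, 7192 and 8504 FPKM. The most abundant was *Acta1*, at 2848, 3133, 2106 and 2583 FPKM. Of the 10, 2 were higher and 2 lower without overlap, led by the myosin genes *Myh4*, at 125, 62.9, 427 and 329 FPKM, and *Myh1*, at 695, 753, 322 and 568 FPKM.

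Macrophage markers summed to 730, 913, 704 and 775 FPKM, with 2 of 7 lower and none higher without overlap. *C1qb* was the most abundant, at 214, 272, 210 and 232 FPKM. Among those without overlap, *Cd68* had the largest lower log2 difference, -0.17. Of 6 neutrophil markers 5 were measured, and all 5 were higher in 7KC-IMQ without overlap, with summed FPKM of 2578, 2120, 7221 and 13815. *S100a9*, the most abundant, had 1293, 1063, 3586 and 7010 FPKM, and *S100a8* had 1267, 1037, 3608 and 6775 FPKM with a log2 difference of 2.11. These genes are also expressed by inflamed keratinocytes. None of the measured adipocyte, muscle, pericyte, macrophage or neutrophil markers was at 0, and the part of these cells in the collagen values was not tested.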

How the data were processed

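Total RNA of dorsal skin was prepared as stranded mRNA libraries and sequenced with 75-base single-end reads. The authors mapped the reads to mm10 and deposited FPKM per gene symbol, 1 file per library. The submitters' processing notes name TopHat2 2.1.1, Bowtie2 2.2.8, SAMtools 0.1.18 and Cuffdiff 2.2.1. The study's methods name Cufflinks and other versions. The annotation, the handling of reads that map to several genes and the use of strand are not given in the sources used here. FPKM is scaled to mapped fragments, so it gives shares and not amounts of RNA, and very short genes are estimated poorly.

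Values were used as log2(FPKM + 1) for genes averaging 0.1 FPKM or more over the libraries. A linear model per gene with moderated variances was fitted for 7KC-IMQ against Cont-IMQ (limma 3.58.1, R 4.3.3), using a variance trend and Benjamini-Hochberg adjustment over all genes tested. The fit was tested on simulated data. Fold ratios are of mean FPKM. Groups and replicate numbers came from the sample labels, which do not say whether the libraries are from separate animals, so p-values measure only the spread between these samples, which may be technical. Depth was estimated from transcripts over 1000 bases, less a fragment length of 200, and genes under 4.5 reads. Positions and shared 75-base windows came from GENCODE M21 (GRCm38, the same coordinates as mm10), where all 44 collagen genes and 23310 of the 24346 symbols were found, and promoters from RefSeq.

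Named genes were every collagen gene averaging 1 FPKM or more, with lower ones given by class. From each other list, the most abundant gene and the largest higher and lower difference without overlap, again averaging 1 FPKM or more, were named. The members and lists were chosen with earlier results of these data known. Alternatives were another pseudocount, 2 other filters, 3 scalings, no variance trend, a replicate block and leaving out each library.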

Additional observations from a re-analysis of the deposited data

How the results depend on the processing

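Of the 24 named collagen genes, 21 kept their direction under each alternative that used all 4 libraries and 11 also when any library was left out. The exceptions with all libraries were *Col11a1*, at 0.155 with a pseudocount of 0.1 and 0.0334 after quantile normalization, *Col15a1*, at -0.038 after rescaling to the same summed FPKM, and *Col16a1*, at -0.0446 after that rescaling and -0.0042 after quantile normalization. The cause was not tested. With a mean FPKM of at least 1, fewer genes were tested. Collagen genes without overlap then numbered 5 higher (20.8%) and 6 lower (25%), beside 25.9% and 23.2% of all genes. The median over the other collagens was 0.2267. The genes past the adjusted threshold numbered 2 with a pseudocount of 0.1.

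Leaving out single libraries reversed 18 of 96 gene values. A group left with 1 library is assumed to vary like the other. Over these fits, the log2 difference ranged from -0.69 to 0.65 for *Col11a1*, from -0.29 to 0.11 for *Col12a1*, from -0.35 to 0.0675 for *Col14a1*, from -0.12 to 0.19 for *Col15a1*, from -0.15 to 0.215 for *Col16a1*, from -0.11 to 0.65 for *Col1a1*, from -0.13 to 0.40 for *Col1a2*, from -0.25 to 0.60 for *Col3a1*, from -0.15 to 0.62 for *Col4a1*, from -0.0202 to 0.45 for *Col4a2*, from -0.18 to 0.0515 for *Col5a1*, from -0.15 to 0.0374 for *Col5a2* and from -0.0639 to 0.34 for *Col5a3*. The median of the fibrillar collagens ranged from -0.11 to 0.11. Genes past the adjusted threshold numbered 1 to 11, and collagen genes at an unadjusted p under 0.05 numbered 3 to 14. Collagen genes without overlap numbered 10 to 16 higher (28.6% to 45.7%) and 12 to 18 lower (33.3% to 50%), which fewer libraries make easier. In the same fits, 33.2% to 38.9% of all genes were higher and 33.5% to 39.1% lower without overlap. No collagen gene passed the adjusted threshold in any of them. Depth limits the genes under 1 FPKM.

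With the replicate block, 1 gene passed the adjusted threshold, and 10 collagen genes in place of 11 had an unadjusted p under 0.05, *Col6a1* being the gene lost. Deviations of same-numbered libraries correlated at 0.0651 across all genes and at 0.1017 across the collagen genes, and the replicate numbers were taken as names only. Collagen genes at an unadjusted p under 0.05 numbered 8 after rescaling to the same summed FPKM and 9 after quantile normalization. They numbered 9 with no variance trend and 14 with no filter on low values. For this p, the share of all genes is given for the main fit only.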
